A study of Mus musculus with 18 samples.

Results

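Ovarian hormones reach most mammary epithelial cells indirectly, through ligands that hormone-sensing cells release to their neighbours. The 6 genes described here encode such mediators and the receptors of one of them: the ligand genes Areg, Wnt4, Tnfsf11 and Calca, the receptor gene Tnfrsf11a and the decoy receptor gene Tnfrsf11b. They were taken by gene symbol, whatever their values, from a table of 46257 genes, and each symbol stood on a single row. All 6 passed the filter on low values. RNA was measured in 3 cell populations sorted from the mouse mammary gland at 3 stages, with 2 libraries in each of the 9 groups and 18 in all. Luminal cells were sorted as estrogen receptor positive (ER+) or negative (ER-), basal cells were taken as well, and glands came from puberty, adulthood and pregnancy. Every group, with no exception, carried the genotype ERrtTA/TetOCre/rosaYFP, in which a tetracycline-controlled transactivator drives a Cre recombinase that switches on a yellow fluorescent reporter. The promoter of the transactivator, any inducer, the sorting gates and mouse ages were not stated in the sources used here.

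In this gland estrogen and progesterone act on ER+ luminal cells, and the signal is passed on. Amphiregulin, the product of Areg, is cleaved from the cell surface by ADAM17 and binds the epidermal growth factor receptor EGFR. WNT4 is a progesterone-induced ligand of the WNT pathway. RANK ligand, the product of Tnfsf11, binds RANK (Tnfrsf11a) and drives alveolar growth, while osteoprotegerin (Tnfrsf11b) is a secreted decoy that holds RANK ligand away from RANK. Calca encodes calcitonin and, by alternative splicing, the calcitonin gene-related peptide CGRP. Values at the gene level do not separate these products.

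Values are called scaled reads here, since they behave as read counts brought to a common total near 20000000 per library, which was inferred from the values. The reads behind them, recovered from the steps between low values, numbered 7674871 to 11292250 per library at puberty and 5280356 to 6363552 in pregnancy. Adult basal libraries held 7900574 and 4233226 reads, and the 4 adult luminal libraries only 2406265 to 3165245, so that 1 read is worth 6.26 to 8.25 scaled reads there. Stage and depth cannot be told apart in comparisons of adult luminal cells, and comparisons of pregnancy with adulthood are given beside those of pregnancy with puberty. Every puberty library was also deeper than every pregnancy library, so stage and depth cannot be told apart there either. Of the listed cell type markers, 8 of 8 ER+ luminal markers were higher in ER+ than in ER- luminal cells over the stages, 7 of 8 ER- luminal markers were lower, and 8 of 8 basal markers were higher in basal cells than in either luminal population. Summed ER- luminal markers did not separate the populations in every library. Adult basal replicate 1 (93901) lay above both adult ER- libraries (44247 and 47804), and the pregnancy basal libraries (107274 and 145382) lay above pregnancy ER- replicate 2. In the pregnancy ER+ libraries the summed ER- luminal markers, largely the milk protein gene Csn2, stood at 128753 and 281981, against 293798 and 59329 in pregnancy ER- cells, and at 4076 to 7166 in puberty ER+ cells. Their summed ER+ markers were 71556 and 28266, against 167194 and 212129 at puberty. Puberty and pregnancy samples titled BC, as the adult basal samples are, carry a label that reads "BC luminal cells". They were taken as basal by title, and their summed basal markers of 266545 to 311384 lay above every luminal library (880 to 38186). In sorted bulk RNA, fewer cells of a type and less RNA per cell cannot be told apart. Nothing in the labels says that the 2 replicates of a group were different animals. The p-values therefore reflect the spread among these libraries, possibly a technical one.

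The start regions of the 4 ligand genes are shown because these genes fall into 2 patterns of expression, described below. RefSeq promoter entries (GRCm38.p6, 250 bases before to 50 bases after the start) matched 5 of the 6 genes, all but Tnfrsf11b. Each is written 5′ to 3′ on the strand of the gene, with motif matches in capitals. Searched on both strands were the cAMP response element TGACGTCA, the TATA box TATAAA, the nuclear receptor motif AGGTCA, the progesterone receptor motif AGAACA, the STAT motif TTCNNNGAA and the full estrogen response element.
Areg, chr5:91139349-91139648, plus strand: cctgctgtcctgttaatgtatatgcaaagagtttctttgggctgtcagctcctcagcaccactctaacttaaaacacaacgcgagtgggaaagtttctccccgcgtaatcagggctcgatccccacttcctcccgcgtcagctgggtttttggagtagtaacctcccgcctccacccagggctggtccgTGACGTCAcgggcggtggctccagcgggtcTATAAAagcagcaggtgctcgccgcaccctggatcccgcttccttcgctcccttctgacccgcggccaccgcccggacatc
Wnt4, chr4:137277385-137277684, plus strand: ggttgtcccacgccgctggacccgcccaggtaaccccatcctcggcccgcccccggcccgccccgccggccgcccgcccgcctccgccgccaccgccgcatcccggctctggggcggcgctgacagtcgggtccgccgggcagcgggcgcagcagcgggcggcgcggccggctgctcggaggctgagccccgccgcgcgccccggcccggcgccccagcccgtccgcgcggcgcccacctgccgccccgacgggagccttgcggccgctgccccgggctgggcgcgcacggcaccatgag
Tnfsf11, chr14:78307994-78308293, minus strand: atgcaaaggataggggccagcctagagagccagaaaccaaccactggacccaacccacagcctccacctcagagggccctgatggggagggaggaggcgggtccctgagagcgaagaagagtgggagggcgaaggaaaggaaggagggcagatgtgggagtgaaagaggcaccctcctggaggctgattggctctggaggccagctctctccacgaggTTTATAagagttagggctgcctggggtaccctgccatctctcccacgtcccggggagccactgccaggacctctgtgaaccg
Calca, chr7:114636308-114636607, minus strand: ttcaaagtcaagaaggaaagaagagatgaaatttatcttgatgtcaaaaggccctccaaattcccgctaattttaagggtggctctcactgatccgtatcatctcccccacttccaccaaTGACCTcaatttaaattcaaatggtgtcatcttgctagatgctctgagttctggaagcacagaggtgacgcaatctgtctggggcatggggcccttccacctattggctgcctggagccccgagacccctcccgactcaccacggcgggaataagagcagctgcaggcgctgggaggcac
The Areg window holds TGACGTCA at -61 to -54 from the start, a match found in 1.79% of 32851 promoters of the same length, and TATAAA at -31 to -26, found in 13.6%. The Tnfsf11 window holds the TATA box in reverse (TTTATA) at -32 to -27. The Calca window holds AGGTCA in reverse (TGACCT) at -130 to -125, a motif of 16.3% of promoters. No match was found in the Wnt4 and Tnfrsf11a windows. The RefSeq start of Wnt4 lies inside the gene as placed by GENCODE, which begins at 137277489. Much of the Wnt4 window therefore lies after that position, and less sequence before it was searched. AGAACA (19.0% of promoters), TTCNNNGAA (8.3%) and the full estrogen response element (0.07%) were in none of the 5 windows.

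Areg was an ER+ luminal transcript at every stage. Areg (ENSMUSG00000029378; chromosome 5, 91139599 to 91148432 in GRCm38) stood at 8765 and 10309 scaled reads in the puberty ER+ libraries, 20221 and 9221 in adult ones and 7671 and 2790 in pregnancy. ER- luminal libraries held 535 and 434 at puberty, 3545 and 1736 in adults and 246 and 200 in pregnancy. Basal libraries held 416 and 1636, 608 and 2297, and 234 and 338 in the same order. Within each stage both ER+ libraries lay above all 4 others, and ER+ cells supplied 86.3%, 78.2% and 91.1% of the summed population means at puberty, adulthood and pregnancy. Over the stages Areg was higher in ER+ than in ER- cells by 3.71 ± 0.46 on the log2 scale (limma adjusted p = 0.000185; ± is the standard error, and p-values are adjusted over 22315 genes). It was lower in basal than in ER+ cells by a log2 fold change of -3.70 ± 0.46 (adjusted p = 8.84e-05), and basal and ER- cells differed by 0.02 ± 0.46 (95% interval -1.0 to 1.03). Within stages ER+ exceeded ER- cells by 4.30 ± 0.79 at puberty (adjusted p = 0.00484) and 4.38 ± 0.79 in pregnancy (adjusted p = 0.0213). The pregnancy call was lost without ER+ replicate 1 (adjusted p = 0.291) or ER- replicate 2 (adjusted p = 0.0967). In adults the difference of 2.46 ± 0.79 missed the threshold (adjusted p = 0.0586, edgeR 0.0432).

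Mean Areg was lowest in pregnancy in each population, mostly without passing the test. Inside ER+ cells the log2 differences of pregnancy from adulthood (-1.56 ± 0.79, 95% interval -3.32 to 0.19) and from puberty (-1.04 ± 0.79, -2.79 to 0.72) did not pass. In ER- cells Areg was lower in pregnancy than in adults by -3.48 ± 0.79 (adjusted p = 0.0179), with no overlap between the 2 groups. This call was lost without adult ER- replicate 1 (adjusted p = 0.0774) or 2 (0.0529) or pregnancy ER- replicate 2 (0.0809). Against puberty the ER- value was -1.12 ± 0.79 (adjusted p = 0.398). Summed ER+ markers moved along with Areg in ER- cells, from 31387 and 45199 in adults to 6292 and 6909 in pregnancy, and their part in the Areg difference was not tested. The 2 pregnancy ER+ libraries differed 2.75-fold in Areg, and the estrogen receptor gene Esr1 (5666 and 2096) and the progesterone receptor gene Pgr (8900 and 3694) differed the same way.

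**Figure D1:**
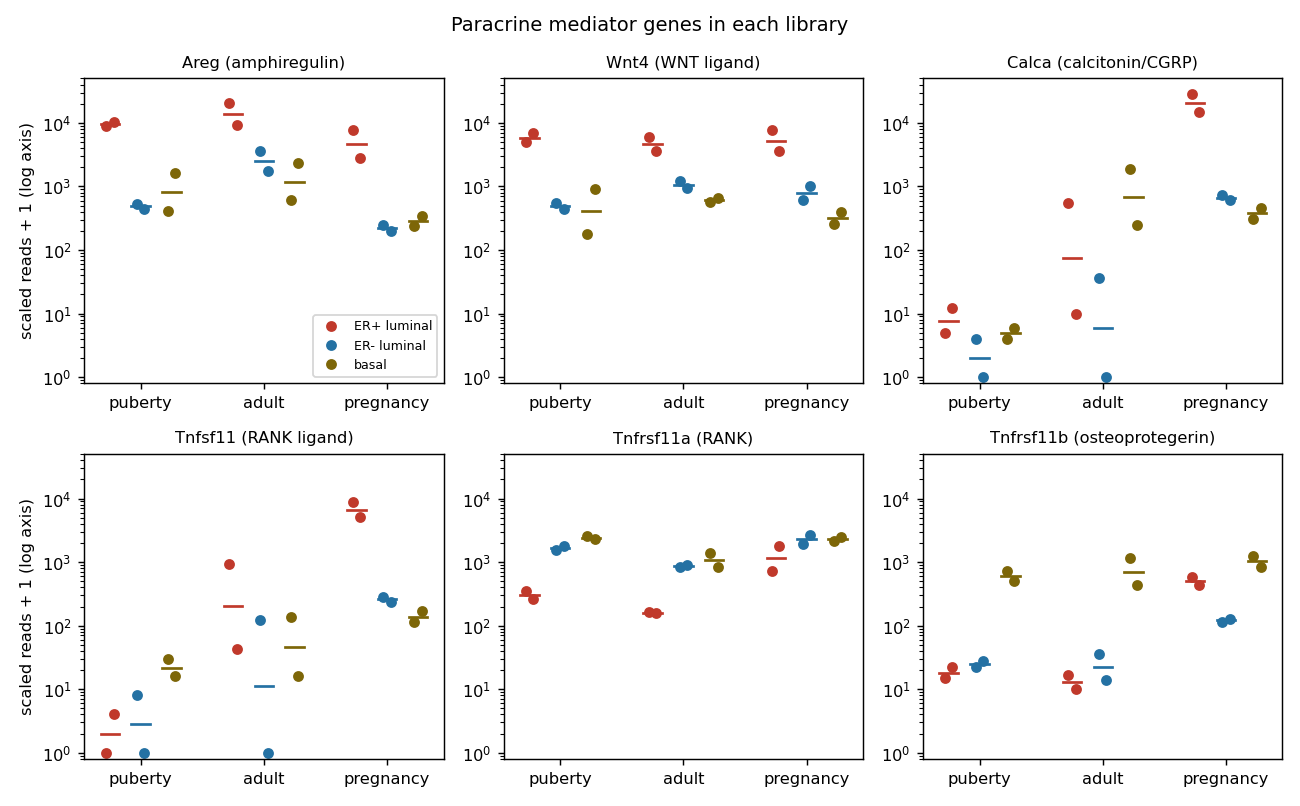
Scaled reads + 1 on a log axis for the 6 genes, 1 point per library by stage and population, with a bar at the geometric mean of the 2 libraries. Areg and Wnt4 are highest in ER+ luminal cells at each stage, Tnfsf11 and Calca are high in pregnancy ER+ cells (5044 to 28214 scaled reads), and Tnfrsf11b is high in basal cells.

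The receptor gene of amphiregulin had the reverse distribution at puberty and in adults. In pregnancy Egfr did not pass for ER+ against ER- cells. Egfr was lower in ER+ than in ER- cells over the stages (-2.13 ± 0.13, adjusted p = 6.57e-08) and higher in basal than in ER- cells (1.03 ± 0.13, adjusted p = 1.74e-05). Per kilobase of exon, the scale used here wherever levels of 2 genes are compared, adult ER+ libraries held 16643 and 7589 of Areg and 28.8 and 38.7 of Egfr. Adult basal libraries held 500 and 1891 of Areg and 587 and 603 of Egfr. Adam17, the gene of the sheddase, stayed between 1168 and 2074 scaled reads in all 18 libraries, and ER+ and ER- cells differed by 0.03 ± 0.09 (adjusted p = 0.869). Exons of Adam17 overlap those of Iah1 on the opposite strand, and whether strand was used in counting was not stated.

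Egfr rose in the pregnancy ER+ libraries, to 2127 and 2241 scaled reads, from 587 and 986 at puberty (1.52 ± 0.23, adjusted p = 0.000351) and 326 and 438 in adults (2.53 ± 0.23, adjusted p = 3.31e-06). The pregnancy effect on Egfr in ER+ cells exceeded that in basal cells by 1.69 ± 0.32 against puberty (adjusted p = 0.0135). The EGFR arm list held 7 genes (Egfr, Erbb2 to Erbb4, Adam17 and the iRhom genes Rhbdf1 and Rhbdf2). Its median from puberty to pregnancy in ER+ cells was 0.16 against 0.12 over all genes tested, of which 13.1% passed in either direction. Of the 7 genes 2 rose and 0 fell. The second was Erbb4, a neuregulin receptor gene named here after its values were seen, at 7643 and 3920 in pregnancy ER+ cells against 273 and 171 at puberty (4.66 ± 0.39, adjusted p = 5.26e-06). Summed ER- luminal markers (128753 and 281981 against 7166 and 4076) and basal markers (31928 and 26018 against 12236 and 880) were higher in the pregnancy than in the puberty ER+ libraries too, and their part in the Egfr and Erbb4 levels was not tested. Erbb4 in pregnancy ER+ cells lay above ER- cells (1128 and 1401) as well, by 2.12 ± 0.39 (adjusted p = 0.00957).

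Wnt4 was held by ER+ cells at a level that did not differ between stages beyond its error. Wnt4 (ENSMUSG00000036856; chromosome 4, 137277489 to 137299726) stood at 5013 and 6823 scaled reads in ER+ cells at puberty, 5887 and 3572 in adults and 7596 and 3578 in pregnancy. ER- libraries ranged from 444 to 1207 and basal libraries from 177 to 911, so that all 6 ER+ libraries lay above all 12 others. ER+ exceeded ER- cells by 2.80 ± 0.37 over the stages (adjusted p = 0.000245), and basal fell below ER+ cells by -3.60 ± 0.37 (adjusted p = 1.7e-05). Within pregnancy the ER+ to ER- difference of 2.73 ± 0.64 missed the threshold (adjusted p = 0.0657, edgeR 0.0226), and that in adults, 2.11 ± 0.64 (adjusted p = 0.0459), passed in 6 of the 18 fits that each left out 1 library (adjusted p 0.00213 to 0.199). At puberty it was 3.57 ± 0.64 (adjusted p = 0.00373). The stage differences in ER+ cells were 0.19 ± 0.64 for pregnancy against adulthood (95% interval -1.23 to 1.60) and -0.17 ± 0.64 against puberty (-1.58 to 1.25). Intervals of this width leave room for changes of more than 1 on the log2 scale in either direction. The 3 ER+ groups were the top 3 in the order of levels and overlapped each other.

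Many WNT receptor genes were higher in basal than in ER+ cells. Of 18 WNT receptor genes, 11 were higher and 3 lower in basal than in ER+ cells over the stages, where 42.8% of all genes tested passed in either direction, with a median of 1.30 against 0.05 over all genes tested. The Frizzled receptor gene Fzd7 had the highest mean level per kilobase of the list. It reached 3716 and 3429 per kilobase in puberty basal cells, where Wnt4 was at 42.2 and 217, and lay at 297 and 220 in puberty ER+ cells, where Wnt4 was at 1195 and 1627. The basal excess of Fzd7 over ER+ cells was 3.12 ± 0.11 (adjusted p = 3.99e-11). Lgr6 and Lgr4, receptor genes for the R-spondins that amplify WNT signals, followed in level and were higher in basal than in ER+ cells by 2.83 ± 0.20 (adjusted p = 2.87e-07) and 2.52 ± 0.21 (adjusted p = 8.66e-07). For Lgr6 the basal to ER- difference was 0.13 ± 0.20 (adjusted p = 0.67).

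A list of feedback targets of WNT signalling, which also holds the R-spondin gene Rspo1, was counted in the same way. Of 10 listed genes 8 were tested, and 6 were higher and 0 lower in basal than in ER+ cells over the stages (median 1.54 against 0.05 over all genes, of which 42.8% passed). Axin2, a feedback inhibitor named here after its values were seen, stood at 558 and 404 scaled reads in puberty basal cells and at 46 and 21 in puberty ER+ cells. In ER+ cells Axin2 rose to 107 and 107 in pregnancy (1.75 ± 0.40 against puberty, adjusted p = 0.00836), and in ER- cells to 286 and 316 from 52 and 34 (2.81 ± 0.40, adjusted p = 0.000425). Rspo1, an R-spondin gene, rose from 17 and 2 scaled reads in puberty to 4213 and 4844 in pregnancy ER- cells (9.26 ± 1.18, adjusted p = 0.000803). In ER- cells it was also lower at puberty than in adults, and pregnancy against adulthood did not pass. Basal cells gained Rspo1 from puberty to pregnancy as well, where 2.07% of all genes passed. Rspo1 also rose in pregnancy ER+ cells, to 1260 and 3414 (8.03 ± 1.18, adjusted p = 0.00127), and passed there against adulthood too. The ER+ library with more Rspo1 was the one with more ER- luminal markers. In pregnancy ER- libraries the order was opposite, with summed ER- luminal markers of 293798 and 59329. The part of ER- cells in the Rspo1 level of ER+ libraries was not tested.

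**Figure D2:**
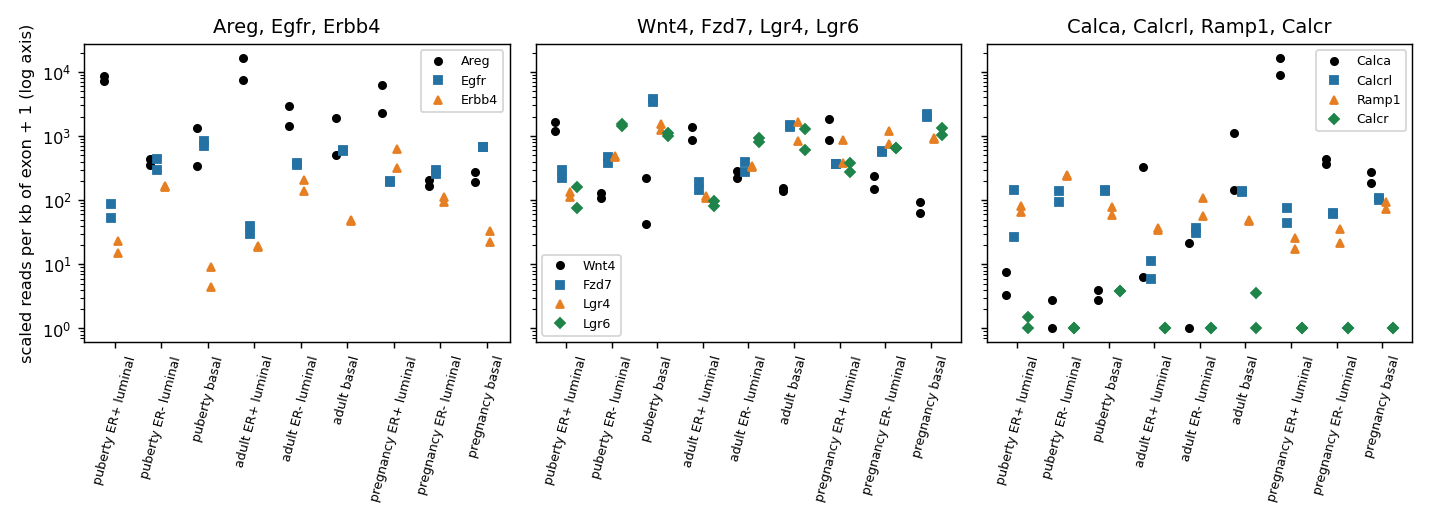
Scaled reads per kilobase of exon + 1 on a log axis, 1 point per library, for each ligand gene and related receptor genes in the 9 groups. Areg and Wnt4 exceed their receptor genes in ER+ cells of puberty and adulthood, Wnt4 lies below Fzd7 in basal cells of each stage, and Calcr is at or near 0 throughout.

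Tnfsf11, the gene of RANK ligand, was almost absent at puberty and abundant in pregnancy ER+ cells. Tnfsf11 (ENSMUSG00000022015; chromosome 14, 78277445 to 78308043) was at 0 and 3 scaled reads in the puberty ER+ libraries, 939 and 42 in adult ones and 8763 and 5044 in pregnancy. Both pregnancy ER+ libraries lay above all other libraries, the next being 939 in adult ER+ replicate 1. ER- cells held 7 and 0, 123 and 0, and 286 and 233 at puberty, adulthood and pregnancy, and basal cells 29 and 15, 136 and 15, and 112 and 166. The rise from puberty to pregnancy in ER+ cells was 11.70 ± 2.13 (adjusted p = 0.0047) and passed under every alternative tried. That fitted value depends on the 1 added before the logarithm, since the puberty group held 1 read in 18082783. Read against read it was 4372 reads against 1, a ratio per sequenced read of 6319 with an exact 95% counting interval of 1134 to 249662. Such intervals pool the reads of both libraries of a group and cover counting error only, not the spread between libraries. Several reads may also stem from 1 molecule, which the intervals leave out.

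Other Tnfsf11 comparisons were limited by the spread of a gene near 0 in many libraries. Pregnancy ER+ exceeded pregnancy ER- cells by 4.68 ± 2.13 (limma adjusted p = 0.367, edgeR 0.0242, DESeq2 0.069). Pregnancy basal cells lay below ER+ cells by -5.60 ± 2.13 (adjusted p = 0.12, edgeR 0.00336, DESeq2 0.00608), with no overlap in either case. ER+ cells supplied 94.5% of the summed population means in pregnancy. Pregnancy against adulthood in ER+ cells gave 5.05 ± 2.13 (adjusted p = 0.134, edgeR 0.0216, DESeq2 0.08), the adult libraries differing 22.4-fold from each other. In ER- cells pregnancy against puberty gave 6.52 ± 2.13 (adjusted p = 0.0669, edgeR 0.0189, DESeq2 0.00443), or 147 reads against 3, a ratio of 91.9 (95% counting interval 30.8 to 451). Pregnancy ER- cells held 3.55% of the summed population means, and the part of ER+ cells in that level was not tested. The pregnancy effect in ER+ cells was not shown to differ from that in basal (9.05 ± 3.01, adjusted p = 0.238) or ER- cells (5.18 ± 3.01, adjusted p = 0.513), both against puberty. T cells also make RANK ligand, and the summed T cell markers were at 135 and 125 in pregnancy ER+ cells and at 345 or less in every library. The part of T cells in the Tnfsf11 levels was not tested.

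Calca, like Tnfsf11, was low in ER+ cells at puberty and abundant there in pregnancy. In adults basal cells held 77.9% of the summed population means of Calca, and ER+ cells held 78.2% of those of Tnfsf11. Neither adult basal to ER+ difference passed, at 3.18 ± 1.94 for Calca (limma adjusted p = 0.231) and -2.1 ± 2.13 for Tnfsf11 (adjusted p = 0.473). Adult basal and ER+ libraries overlapped for both genes. Calca (ENSMUSG00000030669; chromosome 7, 114631478 to 114636357) stood at 4 and 11 scaled reads in puberty ER+ cells, 551 and 9 in adult and 28214 and 14970 in pregnancy ER+ cells. Per kilobase of exon, pregnancy ER+ libraries held 16754 and 8890 of Calca, against 3919 and 2256 of Tnfsf11, 6314 and 2296 of Areg and 1811 and 853 of Wnt4. Calca was thus the most abundant of the 4 ligand transcripts in both libraries. The rise from puberty in ER+ cells was 11.37 ± 1.94 (adjusted p = 0.00326) and passed under every alternative tried, and that from adulthood was 8.11 ± 1.94 (adjusted p = 0.0163, edgeR 6.15 with 0.00266). The second was lost without adult ER+ replicate 2 (adjusted p = 0.107) or pregnancy ER+ replicate 1 (0.0756) or 2 (0.0668).

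Calca also rose in ER- cells, missed the threshold in basal cells and was uneven in adult libraries. ER- cells held 3 and 0 at puberty, 35 and 0 in adults and 731 and 609 in pregnancy, a rise of 8.38 ± 1.94 against puberty (adjusted p = 0.017). Read against read this was 379 against 1, a ratio of 711 (95% counting interval 127 to 28143), and the call was lost without puberty ER- replicate 2 (adjusted p = 0.141) or pregnancy ER- replicate 2 (0.0655). In pregnancy ER- cells held 2.96% and basal cells 1.7% of the summed population means. Summed ER+ markers were 6292 and 6909 in pregnancy ER- cells, against 71556 and 28266 in pregnancy ER+ cells. The part of ER+ cells in the Calca levels of the other populations was not tested. Basal cells held 3 and 5, 1859 and 244, and 310 and 461, with pregnancy against puberty at 6.27 ± 1.94 (adjusted p = 0.157, edgeR 0.0389, DESeq2 0.00134). Read against read this was 233 against 3, a ratio of 125 (95% counting interval 42.1 to 608). Within basal cells Calca was lower at puberty than in adults (-7.11 ± 1.94, adjusted p = 0.0456, passing in 6 of 18 fits that left out 1 library, adjusted p 0.0182 to 0.223). Adult basal cells exceeded adult ER- cells by 6.81 ± 1.94 (adjusted p = 0.0362, kept in 13 of 18 such fits, up to 0.204). Pregnancy ER- cells exceeded adult ones by 6.80 ± 1.94 (adjusted p = 0.0421, kept in 5 of 18, up to 0.26). The higher adult basal library was also the higher in Csn2, at 77881 against 6854, and in summed ER- luminal markers, at 93901 against 16776, and the part of these in the Calca level was not tested. In pregnancy ER+ cells exceeded ER- cells by 4.94 ± 1.94 (adjusted p = 0.283, edgeR 0.0134), and basal cells lay below ER+ cells by -5.76 ± 1.94 (adjusted p = 0.0806, edgeR 0.00191), with no overlap. Over the stages the ER+ to ER- difference was 3.51 ± 1.12 (adjusted p = 0.0423, edgeR 0.0767), which passed in 4 of 18 fits that left out 1 library (adjusted p 0.00683 to 0.109). ER+ cells supplied 95.3% of the summed population means of Calca in pregnancy. The test of a larger pregnancy effect in ER+ than in ER- cells gave 2.99 ± 2.74 against puberty (adjusted p = 0.718).

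The calcitonin receptor gene Calcr was close to absent. It was at 0 in all 6 pregnancy libraries, which allows up to 3 reads over each group, and its highest value was 11 scaled reads, in both puberty basal libraries. The CGRP receptor gene Calcrl was measured in all groups, at 293 and 301 scaled reads in pregnancy ER- cells, 362 and 210 in ER+ cells and 524 and 491 in basal cells. Calcrl was higher in basal than in ER+ cells over the stages (2.09 ± 0.34, adjusted p = 0.000244). CALCRL needs a partner protein of the RAMP family, and RAMP1 makes it a CGRP receptor. Ramp1 fell from 728 and 735 scaled reads at puberty to 61 and 106 in pregnancy ER- cells (-3.17 ± 0.36, adjusted p = 7.13e-05), and from 246 and 197 to 50 and 75 in ER+ cells (-1.83 ± 0.36, adjusted p = 0.00284). In pregnancy Ramp1 was higher in basal cells, at 277 and 219, than in ER- cells (1.60 ± 0.36, adjusted p = 0.00657). Endothelial cells express Calcrl and Ramp2, and summed endothelial markers ranged from 236 in an adult ER+ library to 10692 in a puberty basal one. The part of such cells in these levels was not tested. Of 9 genes of the calcitonin family and its receptors, 1 rose and 1 fell in ER+ cells from puberty to pregnancy (median -0.12 against 0.12 over all genes, of which 13.1% passed). From adulthood to pregnancy 5 rose and 0 fell in the same cells (median 2.32 against 0.20, with 17.9% of all genes passing). Calcrl was among those 5 (2.95 ± 0.59, adjusted p = 0.00395) and gave -0.12 ± 0.59 against puberty (adjusted p = 0.944). The riser from puberty was Calcb, the gene of a second CGRP, at 72 and 33 in pregnancy ER+ cells and at most 7 elsewhere (4.85 ± 1.31, adjusted p = 0.0223), which was named after its values were seen.

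Tnfrsf11a, the gene of RANK, was low in ER+ cells and high in both other populations until pregnancy. Tnfrsf11a (ENSMUSG00000026321; chromosome 1, 105780718 to 105847981) stood at 345 and 259 scaled reads in puberty ER+ cells, 1574 and 1812 in ER- cells and 2569 and 2303 in basal cells. Adult libraries held 163 and 157, 825 and 909, and 1410 and 849 in the same order. At both stages ER+ cells lay below ER- and basal cells with no overlap. Over the stages ER+ cells were below ER- cells by -1.97 ± 0.19 (adjusted p = 3.93e-06) and basal cells above ER+ cells by 2.27 ± 0.19 (adjusted p = 3.38e-07), while basal and ER- cells differed by 0.29 ± 0.19 (95% interval -0.12 to 0.70).

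In pregnancy Tnfrsf11a rose in ER+ cells, to 733 and 1780. The rise was 1.93 ± 0.33 against puberty (adjusted p = 0.00132) and 2.83 ± 0.33 against adulthood (adjusted p = 5.7e-05). The 2 libraries differ, and without replicate 2 the values were 1.29 (adjusted p = 0.017) and 2.19 (adjusted p = 0.000354). Replicate 2 also had more of the ER- luminal transcription factor gene Elf5, at 11434 against 4329, and of summed ER- luminal markers, at 281981 against 128753, and less Esr1. The part of ER- cells in the Tnfrsf11a level of the ER+ libraries was not tested. ER- libraries held 1928 and 2696 and basal libraries 2118 and 2497 in pregnancy, still above both ER+ libraries, with ER+ minus ER- at -1.0 ± 0.33 (adjusted p = 0.173) and basal minus ER+ at 1.01 ± 0.33 (adjusted p = 0.0599). Without pregnancy ER+ replicate 2 both passed, at -1.64 (adjusted p = 0.00557) and 1.65 (adjusted p = 0.0028). ER- cells rose from adulthood (1.40 ± 0.33, adjusted p = 0.0143) and gave 0.43 ± 0.33 against puberty (adjusted p = 0.431). The rise from adulthood was lost without adult ER- replicate 1 (adjusted p = 0.0609) or 2 (0.073) or pregnancy ER- replicate 2 (0.135). Basal cells differed from puberty to pregnancy by -0.08 ± 0.33 (95% interval -0.79 to 0.63). Their pregnancy libraries lay above the adult ones with no overlap. That difference of 1.07 ± 0.33 missed the threshold (limma adjusted p = 0.0642, edgeR 0.0482, DESeq2 0.0247). Basal cells were higher at puberty than in adults by 1.15 ± 0.33 (adjusted p = 0.0423), a call kept in 7 of 18 fits that left out 1 library (adjusted p 0.00883 to 0.309).

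**Figure D3:**
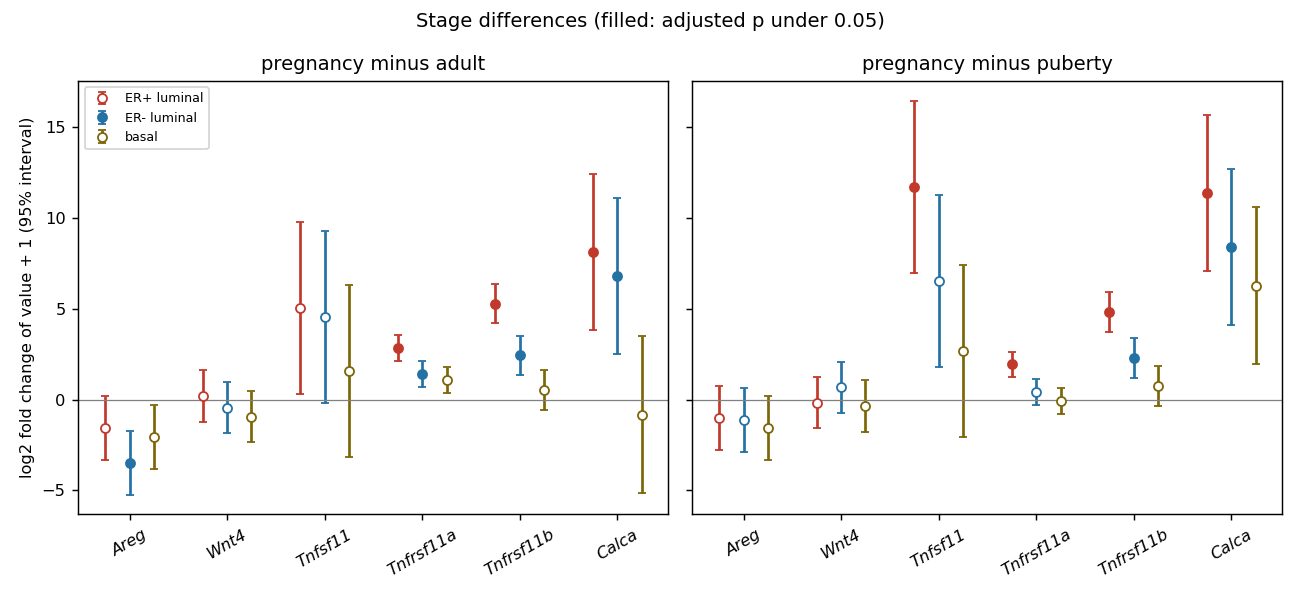
Log2 fold change of value + 1 with its 95% interval for pregnancy minus adulthood and pregnancy minus puberty in each population, filled where the adjusted p is under 0.05. Tnfsf11 (against puberty), Tnfrsf11a, Tnfrsf11b and Calca rose in ER+ cells, while the intervals of Tnfrsf11b in basal cells span 0.

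Tnfrsf11b, the gene of the decoy osteoprotegerin, was a basal transcript at puberty and in adults. Tnfrsf11b (ENSMUSG00000063727; chromosome 15, 54250619 to 54278484) stood at 727 and 502 scaled reads in puberty basal cells, 1156 and 432 in adult and 1235 and 848 in pregnancy basal cells. All 8 luminal libraries of puberty and adulthood held 9 to 35, far below the basal ones. Over the stages basal cells exceeded ER+ cells by 3.94 ± 0.30 (adjusted p = 5.24e-08) and ER- cells by 4.22 ± 0.30 (adjusted p = 4.47e-08). The basal to ER+ difference was 5.06 ± 0.51 at puberty (adjusted p = 5.24e-06) and 5.76 ± 0.51 in adults (adjusted p = 8.66e-07). In pregnancy it was 1.01 ± 0.51 and missed the threshold (limma adjusted p = 0.226, edgeR 0.0397, DESeq2 0.0341). Basal cells supplied 93.7% of the summed population means at puberty, 95.6% in adults and 62.3% in pregnancy.

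In pregnancy luminal cells gained the transcript. ER+ cells rose to 580 and 443, a change of 4.81 ± 0.51 from puberty (adjusted p = 2.64e-05) and 5.28 ± 0.51 from adulthood (adjusted p = 6.88e-06), and both passed under every alternative tried. Against adulthood the reads were 323 against 3, a ratio of 42.7 (95% counting interval 14.5 to 208). ER- cells rose less far, to 112 and 128, by 2.28 ± 0.51 from puberty (adjusted p = 0.00826) and 2.43 ± 0.51 from adulthood (adjusted p = 0.00696). Without pregnancy ER- replicate 2 these calls were lost (adjusted p = 0.0732 and 0.0675), as was the first without puberty ER- replicate 1 (0.0536) and the second without adult ER- replicate 2 (0.0916). Basal cells did not differ beyond their error, with 0.76 ± 0.51 (95% interval -0.33 to 1.85) and 0.53 ± 0.51 (-0.55 to 1.62). The pregnancy effect in ER+ cells exceeded that in basal cells by 4.05 ± 0.72 against puberty (adjusted p = 0.00992) and 4.75 ± 0.72 against adulthood (adjusted p = 0.00104). The first of these was lost without puberty basal replicate 1 (adjusted p = 0.0688) or pregnancy basal replicate 2 (0.0648). Against ER- cells the excess of 2.52 ± 0.72 (puberty, adjusted p = 0.0869) and 2.86 ± 0.72 (adulthood, adjusted p = 0.0548) missed the threshold. Within pregnancy the ER+ to ER- difference was 2.07 ± 0.51 (adjusted p = 0.0521, edgeR 0.00808).

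Summed basal markers were higher in both pregnancy than in both puberty ER+ libraries, as Tnfrsf11b was. Summed basal markers were 31928 and 26018 in pregnancy ER+ cells and 38186 and 35618 in pregnancy ER- cells, where Tnfrsf11b was at 112 and 128, against 308176 and 305543 in pregnancy basal cells. At puberty they were 12236 and 880 in ER+ cells, where Tnfrsf11b was at 14 and 21. Summed fibroblast markers were 12923 and 41485 in puberty ER+ cells, 50685 and 24813 in pregnancy ER+ cells, 14940 and 13099 in pregnancy ER- cells, and 99881 and 94220 in pregnancy basal cells, and the part of basal cells and fibroblasts in the Tnfrsf11b level was not tested.

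Set against each other per kilobase, RANK ligand and its decoy changed places between populations. In pregnancy ER+ libraries Tnfsf11 was 19.0 and 14.3 times the level of Tnfrsf11b, in ER- libraries 3.22 and 2.29 times, and in basal libraries 0.114 and 0.247 times. At puberty all 6 libraries had less Tnfsf11 than Tnfrsf11b, with ratios of 0 to 0.42. Adult ER+ libraries gave 74.0 and 5.88, from only 3 reads of Tnfrsf11b over both, so these 2 ratios are of low precision. RANK ligand exceeded RANK per kilobase in both pregnancy ER+ libraries (3919 and 2256 against 122 and 297) and in adult ER+ replicate 1 (420 against 27.2). In the other 15 libraries RANK was the higher.

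**Figure D4:**
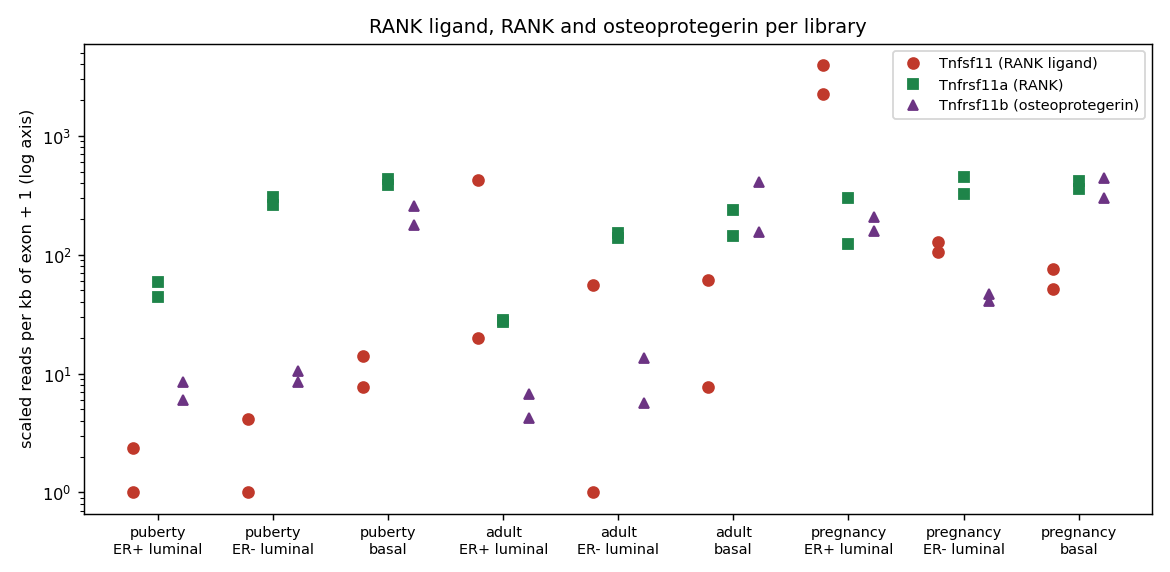
Scaled reads per kilobase of exon + 1 on a log axis for RANK ligand, RANK and osteoprotegerin, 1 point per library, in the 9 groups. RANK ligand tops RANK in both pregnancy ER+ libraries and 1 adult ER+ library, and osteoprotegerin is high in basal cells and in pregnancy ER+ cells.

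Genes downstream of RANK were counted beside all genes tested. Of 15 listed genes (TRAF adaptors, NF-kB subunits and kinases, Ccnd1 and Id2), 1 was higher and 8 were lower in ER+ than in ER- cells over the stages. The median was -0.39 against -0.11 over all genes tested, of which 25.5% passed in either direction. From puberty to pregnancy 4 rose and 1 fell in ER- cells (median 0.24 against 0.03), 0 rose and 1 fell in ER+ cells (-0.12 against 0.12) and 0 changed in basal cells (0.20 against -0.02). The shares of all genes that passed there were 14.8% in ER-, 13.1% in ER+ and 2.07% in basal cells. Ccnd1, the cyclin D1 gene, stood at 5138 and 5039 in pregnancy ER- cells and 4609 and 3214 at puberty (0.40 ± 0.40, adjusted p = 0.567). Id2, the gene of a helix-loop-helix inhibitor needed for alveolar growth, was at 1962 and 2197 against 1562 and 1709 (0.35 ± 0.25, adjusted p = 0.406). Against adulthood Id2 rose in pregnancy ER- cells (1.25 ± 0.25, adjusted p = 0.00574) and ER+ cells (2.16 ± 0.25, adjusted p = 4.02e-05), the ER+ effect exceeding the basal one by 2.10 ± 0.36 (adjusted p = 0.00224). Against puberty neither the ER+ change in Id2 nor its excess over the basal one passed. In ER+ cells Id2 was higher at puberty than in adults. From adulthood to pregnancy 2 of the 15 rose and 0 fell in ER+ cells (median 0.15 against 0.20), 2 rose and 1 fell in ER- cells (0.31 against 0.09) and 0 rose and 2 fell in basal cells (-0.15 against -0.09). Of all genes 17.9% passed in ER+, 14.4% in ER- and 7.26% in basal cells.

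Most of the listed hormone receptor genes and their partners were higher in ER+ than in ER- cells. Of 11 genes listed as hormone inputs, 7 were higher and 1 lower over the stages (25.5% of all genes passed in either direction), with a median of 2.34 against -0.11 over all genes tested. The lower one was Elf5 (-2.77 ± 0.39, adjusted p = 0.000488). From puberty to pregnancy 3 rose and 2 fell in ER+ cells (median -0.33 against 0.12 over all genes, of which 13.1% passed). Esr1 was among the 2 that fell, from 18278 and 24264 to 5666 and 2096 (-2.61 ± 0.62, adjusted p = 0.0187), in the libraries where Tnfsf11 and Calca were highest. Pgr, at 18388 and 27548 against 8900 and 3694, missed the threshold (-1.97 ± 0.68, adjusted p = 0.0911).

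Counts over the 6 genes were as follows, each beside the share of all 22315 genes that passed the same test in either direction. Over the stages 4 of 6 differed between ER+ and ER- cells (25.5% of all genes), 4 between basal and ER+ cells (42.8%) and 1 between basal and ER- cells (35.9%). For ER+ against ER- cells 3 passed at puberty (12.4%), 2 in adults (17.0%) and 1 in pregnancy (1.85%). For basal against ER+ cells 4 passed at puberty (21.3%), 4 in adults (36.8%) and 2 in pregnancy (13.2%). For basal against ER- cells 1 passed at puberty (17.8%), 2 in adults (17.4%) and 1 in pregnancy (18.6%), Tnfrsf11b being among them each time. Pregnancy against adulthood gave 3 in ER+ (17.9%), 4 in ER- (14.4%) and 0 in basal cells (7.26%). Pregnancy against puberty gave 4 in ER+ (13.1%), 2 in ER- (14.8%) and 0 in basal cells (2.07%). Puberty against adulthood gave 0 in ER+ (5.73%), 0 in ER- (3.66%) and 2 in basal cells (9.73%). Of the tests that the pregnancy effect differs between populations, 0 of 6 passed for ER+ against ER- cells from adulthood (2.07%) and 0 from puberty (2.31%), and 2 passed for ER+ against basal cells from adulthood (8.46%) and 2 from puberty (1.63%), both times Tnfrsf11a and Tnfrsf11b. For the 6 comparisons with 0 calls by limma, the genes with an unadjusted p under 0.05 numbered 2 and 1 (basal, pregnancy against adulthood and against puberty), 2 and 2 (puberty against adulthood in ER+ and ER- cells) and 2 and 2 (ER+ against ER- effects from adulthood and from puberty). In the same order edgeR called 1, 1, 1, 0, 0 and 1 and DESeq2 called 2, 1, 2, 1, 0 and 2. Comparisons that share a group share its libraries, and their counts are not independent.

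Genes most like each member were ranked by Pearson correlation of log2(value + 1) over the 18 libraries, among 12321 genes, as a description with no test. Areg was nearest to Cited1 (0.974), a coactivator gene of ER+ cells, then Ccdc92 (0.963) and Foxa1 (0.962), an estrogen receptor pioneer factor gene. Wnt4 was nearest to Arg2 (0.965), D8Ertd82e (0.959) and Anxa4 (0.955). Tnfsf11 was nearest to Rp1 (0.905), Mdm1 (0.898) and Cdc7 (0.894), and Calca to Tmprss6 (0.915), Hepacam2 (0.902) and Rasd2 (0.896), all 6 of them highest in pregnancy ER+ cells. Tnfrsf11a was nearest to Tanc1 (0.977), Gprc5b (0.96) and Snx18 (0.959), and Tnfrsf11b to Emb (0.964), Tspan5 (0.951) and Spock3 (0.95). Among the members themselves, Tnfsf11 and Calca (0.906) and Areg and Wnt4 (0.875) ran together, Areg and Tnfrsf11a ran opposite (-0.885), and Areg and Calca were unrelated (0.009). Libraries of a group share their stage and population, so these are not 18 independent points.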

How the data were processed

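RNA from FACS-sorted cells was purified with RNeasy micro kits and sequenced from Ovation Solo libraries, per the labels' protocols. Tools named are STAR, Picard and HTSeq, with the build GRCm38, per the submitters' processing notes. Their versions, settings and strand use: not given in the sources used here. Values are signal in whole numbers, in 1 table the authors deposited. Library totals of 19841695 to 19897395 and library-specific steps between low values led to the reading that reads were scaled to 20000000 and rounded up. Inverting that rounding returned 99.76% to 99.95% of non-zero values. Depths and read ratios rest on this inference, which a stricter test of the steps bore out for 3 of the 18 libraries. Of 46868 rows, those repeating a gene ID were reduced to the one with the highest mean, which left 46257 genes. Positions are from GENCODE vM21 (45934 IDs found), per-kilobase values use its exon union.

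The test was limma 3.58.1 in R 4.3.3 (trend and robust) on log2(value + 1), on the 22315 genes that reached 10 in 2 or more libraries. All 18 libraries entered together, each group having its own mean, which left 9 residual degrees of freedom. Tests were 2-sided, with Benjamini-Hochberg adjustment and a threshold of 0.05. Fold changes of low genes depend on the 1 added. In all, 25 comparisons were made. The recovered reads were also tested with edgeR 4.0.16 and with DESeq2 1.42.0. The fitting script was tested on simulated data. Alternatives were other pseudocounts, filters and scalings, no trend, the compared groups alone, a replicate block and each library left out. Leaving out 2 libraries together and thinning reads to 2406265 per library were added after seeing the data. The members and gene lists were chosen with earlier results of these data known. Named genes were the 6 members, the 3 genes most correlated with each (highest group mean of at least 100), and receptor, sheddase and downstream genes of the lists. Axin2, Erbb4 and Calcb were added after their values were seen. Python 3.11.15, pandas 2.3.3 and matplotlib 3.10.9 made tables and plots.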

Additional observations from a re-analysis of the deposited data

Results flagged for a closer look

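The effect of pregnancy differed between ER+ luminal and basal cells for both RANK ligand receptors, by a test of that difference. For Tnfrsf11b the ER+ effect was larger by 4.75 on the log2 scale against adulthood (limma adjusted p = 0.00104) and by 4.05 against puberty (adjusted p = 0.00992). For Tnfrsf11a it was larger by 1.76 against adulthood (adjusted p = 0.0327) and by 2.01 against puberty (adjusted p = 0.0468). The Tnfrsf11a differences passed in 12 and 4 of the 18 fits that each left out 1 library (adjusted p 0.00163 to 0.113 and 0.00254 to 0.206). Without pregnancy ER+ replicate 2 they were 1.12 (adjusted p = 0.111) and 1.37 (adjusted p = 0.126).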

How the results depend on the processing

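Of the 48 called member values, 30 stayed past the threshold under every alternative, and no called value changed sign. Calls lost numbered 7 with the compared groups alone, 5 with no filter, 5 with no trend, 3 with quantile normalization, 2 with a pseudocount of 0.25, 2 with edgeR, 1 with a pseudocount of 10, 1 with median-ratio size factors and 0 with DESeq2 or a filter at 50. Of the alternatives added after seeing the data, thinned reads lost 4 and leaving out adult basal 1 with pregnancy ER+ 2 lost 7. Of 33 uncalled values followed under the alternatives, edgeR called 14 and DESeq2 15. Counting pairs of a gene and a comparison, population differences within stages went from 20 called to 32 with the compared groups alone. Differences of stage effects went from 4 called to 7 with a pseudocount of 10, 2 with quantile normalization, 2 with no trend, 8 with DESeq2 and 2 without adult basal 1 and pregnancy ER+ 2. With each library left out in turn the called pairs numbered 8 to 11 (population over stages), 18 to 23 (within stages), 9 to 16 (stage within population) and 1 to 6 (differences of stage effects). Values that changed sign were all uncalled. Examples with 1 library left out are given here. Calca for pregnancy minus adulthood in basal cells ran from -2.29 to 0.63 (0.63 also without adult basal 1 and pregnancy ER+ 2), Tnfrsf11b for the same from -0.18 to 1.24, and Tnfrsf11a for pregnancy minus puberty in basal cells from -0.20 to 0.04. Tnfsf11 for basal minus ER+ cells in adults ran from -4.33 to 0.12, and Areg for basal minus ER- cells over the stages from -0.31 to 0.34. Wnt4 in ER+ cells ran from -0.36 to 0.73 against adulthood and from -0.71 to 0.38 against puberty (0.38 also without adult basal 1 and pregnancy ER+ 2). The cause of these changes was not tested.

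Whether replicate numbers mark a pairing was not settled. Over 36 pairs of groups, same-numbered libraries deviated together with correlations of -0.088 to 0.269 (median 0.014), and 1 pair exceeded 0.1. The 9 pairs of the same stage, the only ones that could share animals, were all above 0 (0.016 to 0.269), with that 1 pair over 0.1. With a replicate block the called pairs numbered 9 (population over stages), 21 (within stages), 16 (stage within population) and 5 (differences of stage effects), and 2 of the 48 calls were lost: Wnt4 in adult ER+ against ER- cells (adjusted p = 0.0538) and the Tnfrsf11a difference of ER+ from basal effects against puberty (0.0511). Of the uncalled values 5 passed: Tnfrsf11b in pregnancy ER+ against ER- cells (0.0339) and for their pregnancy effects against adulthood (0.0355), Tnfsf11 in ER- cells against puberty (0.0336), and Calca in pregnancy basal against ER+ cells (0.0492) and for their effects against adulthood (0.0456). Depth limits Tnfsf11, Calca and Tnfrsf11b in adult luminal cells, the shallowest libraries.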

Other observations

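In all 3 adult populations replicate 1 held more Tnfsf11, Calca and Tnfrsf11b than replicate 2. Tnfsf11 stood at 939 against 42 scaled reads in ER+, 123 against 0 in ER- and 136 against 15 in basal cells. Calca stood at 551 against 9, 35 against 0 and 1859 against 244, and Tnfrsf11b at 16 against 9, 35 against 13 and 1156 against 432. Csn2, the beta-casein gene, differed in the same direction in the 3 populations, at 280 against 58, 6053 against 546 and 77881 against 6854. Wnt4 (5887 against 3572, 1207 against 934 and 571 against 647) did not differ one way, and Pgr was lower in replicate 1 in each population (14528 against 20643, 2972 against 4580 and 731 against 2377). This pattern was noticed in the data, and the labels do not say whether a replicate number marks the same animals across populations.

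In pregnancy ER- libraries Csn2 was at 253329 and 21279, while Tnfsf11 (286 and 233), Calca (731 and 609) and Tnfrsf11b (112 and 128) differed little between the same libraries.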
